A study of Mus musculus with 2 samples.

Results

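The 6 genes Pou5f1, Sox2, Utf1, Fgf4, Sall4 and Lin28a, which mark undifferentiated mouse embryonic stem cells (mESCs), were examined in single-cell RNA-seq of telomerase-deficient mESCs. They were chosen by name, with earlier results of these data known, and are 6 of 38458 gene columns. The cells were of the line DKO741, derived from E14 mESCs by targeting both alleles of Terc, the RNA template of telomerase, so both groups lacked Terc and no wild-type cells are compared here. PD stands for population doubling in the study, whereas the sample labels call these numbers passages. PD100 cells (labelled passage 100) were harvested before alternative lengthening of telomeres (ALT). PD800 cells (labelled passage 800) were harvested after the culture had activated ALT. DKO741 is a single targeted line, and mESCs were maintained on feeder fibroblasts but grown feeder-free for experiments. Each time point had 1 inDrops library, in which transcripts are captured in droplets and counted by unique molecular identifiers (UMIs).

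After barcodes with fewer than 1000 UMIs or over 20% mitochondrial UMIs were left out, 814 PD100 cells with 1826233 UMIs and 900 PD800 cells with 2580963 UMIs remained. The cells were shallow, with medians of 2151 and 2701.5 UMIs, and the median mitochondrial share was 1.23% in PD100 and 4.42% in PD800. With 1 library per time point there was no replicate error and no test. The intervals below are 95% intervals of counting error only, and the time point cannot be told apart from the harvest and preparation of its library. Levels are given as CPM, the UMIs of a gene relative to all UMIs of its library or cell group, put on a common total. The 10 fibroblast markers examined held 32 UMIs in PD100 and 41 in PD800, with Col1a1 and Lum at 0 in PD100 and Dcn and Pdgfrb at 0 in PD800. Of all cell barcodes 21 names occurred in both libraries, 8 of them among the cells that passed the filter.

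In PD100, 37 cells had 5 or more UMIs of Col4a1, Col4a2, Srgn, Gata6 and Gata4 together, genes of the extraembryonic endoderm. They are called endoderm-marked cells here, and the remaining 777 PD100 cells are called other PD100 cells. Of 14 endoderm markers that did not choose them, 12 had UMIs in the endoderm-marked cells, whereas Ttr and Afp had 0. The summed level of the 14 was 9871 CPM against 348 CPM in the other PD100 cells, of which Sparc alone made up 5289 and 262 CPM. No PD800 cell had more than 2 UMIs of the 5 choosing genes.

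Pou5f1 (also called Oct4) and Sox2 are transcription factors of the POU and Sox families. They bind DNA side by side at enhancers of stem cell genes, including their own. Utf1, a chromatin-associated protein, and Fgf4, a secreted growth factor, are well-known targets of the pair. Sall4 is a zinc-finger protein that works with Pou5f1 and recruits the NuRD complex, and Lin28a is an RNA-binding protein that blocks maturation of let-7 microRNAs. In the embryo these genes mark the inner cell mass and epiblast, and Fgf4 from these cells directs their neighbours to become primitive endoderm.

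In GRCm38 (GENCODE M21) Pou5f1 lies at chr17:35506018-35510772, Sox2 at chr3:34650405-34652461, Utf1 at chr7:139943789-139945112 and Fgf4 at chr7:144847367-144865243, all on the plus strand. Sall4 at chr2:168748332-168767943 and Lin28a at chr4:134003330-134018841 lie on the minus strand. Sox2 lies within the long non-coding gene Sox2ot on the same strand, which held 3 UMIs in PD100 and 6 in PD800. The antisense gene Gm19553 over Pou5f1 held 0 and 1 UMIs, and the genes over the starts of Sall4 (Gm14261) and Lin28a (Gm13061) held 0, so little signal of the 6 genes could be shared with an overlapping gene. No pseudogene in GENCODE M21 was named after a member, and pseudogenes under other names were not sought.

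The promoters of Pou5f1, Sox2 and Utf1 are shown because these 3 genes were lower together in the endoderm-marked cells, and that of Fgf4 because it was the member with the highest PD800 over PD100 ratio. The sequences are from RefSeq (GRCm38.p6), on the plus strand, and run up to the start site or to the first annotated exon base. They span chr17:35505782-35506017 for Pou5f1, chr3:34649745-34649994 for Sox2, chr7:139943606-139943788 for Utf1 and chr7:144861136-144861385 for Fgf4, the last lying within the longer span that GENCODE gives this gene. Capitals mark matches to GGGCGG (the GC box), AGGTCA (a motif of nuclear receptors) or ATGCAAA (the first 7 letters of the octamer that POU factors bind), searched on both strands.
Pou5f1: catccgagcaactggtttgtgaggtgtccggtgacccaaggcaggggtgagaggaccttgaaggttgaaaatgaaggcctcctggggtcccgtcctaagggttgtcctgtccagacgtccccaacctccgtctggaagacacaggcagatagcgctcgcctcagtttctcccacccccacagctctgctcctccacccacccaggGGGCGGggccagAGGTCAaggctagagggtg
Sox2: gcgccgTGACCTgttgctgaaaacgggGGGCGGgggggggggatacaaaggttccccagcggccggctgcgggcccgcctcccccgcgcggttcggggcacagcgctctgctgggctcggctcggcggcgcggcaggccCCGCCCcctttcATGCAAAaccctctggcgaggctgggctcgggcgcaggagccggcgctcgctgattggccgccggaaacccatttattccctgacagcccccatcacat
Utf1: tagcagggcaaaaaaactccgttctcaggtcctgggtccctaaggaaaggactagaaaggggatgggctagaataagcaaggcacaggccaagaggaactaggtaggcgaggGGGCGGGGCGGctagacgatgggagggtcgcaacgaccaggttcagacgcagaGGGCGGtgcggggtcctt
Fgf4: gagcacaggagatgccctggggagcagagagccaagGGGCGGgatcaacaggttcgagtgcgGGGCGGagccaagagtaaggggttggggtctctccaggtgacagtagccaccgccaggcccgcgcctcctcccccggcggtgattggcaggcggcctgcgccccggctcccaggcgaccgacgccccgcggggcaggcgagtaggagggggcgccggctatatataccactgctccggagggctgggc
All 4 hold a GC box, as did 32.7% of 32851 RefSeq promoters in windows of 250 bases. Pou5f1 has GGGCGG 45 bases and AGGTCA 33 bases before its start, and Sox2 holds the latter on the opposite strand 244 bases before its start. AGGTCA was in 14% of the promoters. The octamer letters ATGCAAA lie 99 bases before the Sox2 start and were in 4.12% of all promoters. In Utf1 the 2 upstream GC boxes overlap in a single run that begins 138 bases before the start, and a further one lies 85 bases before it. No printed window holds CATTGTT, a Sox motif found in 3.29% of promoters, or TATAAA, found in 12.4%. RefSeq has another Pou5f1 start within the gene, whose window (chr17:35508557-35508804, not printed) holds CATTGTT on the opposite strand 159 bases before that start. A match is a match of letters and was not tested as a binding site. Lin28a had an entry without a match, and Sall4 is named only.

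The first question was whether the core genes stayed at their level between pre-ALT and post-ALT cells. Of the 6 genes, 0 were at least 2-fold lower in PD800 and 0 at least 2-fold higher, where 16.9% and 9.22% of the 6984 tested genes (50 or more UMIs over both libraries) passed the same rules. The median log2 ratio of PD800 over PD100 was -0.26 over the 6 genes, against -0.34 over all tested genes. Lin28a, with 46 UMIs in all, did not reach the minimum, and the median of the other 5 was -0.16.

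Pou5f1 had 1030 UMIs in PD100, or 564 CPM (530 to 600), and 1139 in PD800, or 441 CPM (416 to 468). Its log2 ratio was -0.35 (-0.48 to -0.23), which placed it at rank 3535 of 6984 from the highest, in the middle of all genes. Sox2 had 318 UMIs, or 174 CPM (156 to 194), and 469 UMIs, or 182 CPM (166 to 199). The levels of Sox2 overlapped, with a log2 ratio of 0.06 (-0.15 to 0.27). Utf1 had 1777 UMIs, or 973 CPM (928 to 1019), and 2245 UMIs, or 870 CPM (834 to 907). Its log2 ratio of -0.16 (-0.25 to -0.07) was a small difference in level beyond counting error.

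Fgf4 was the member that was higher in PD800. It had 69 UMIs in PD100, or 37.8 CPM (29.4 to 47.8), and 149 in PD800, or 57.7 CPM (48.8 to 67.8). The level was 1.53-fold higher in PD800, a log2 ratio of 0.61 (0.19 to 1.04) at rank 1032 of 6984. Sall4 had 111 UMIs, or 60.8 CPM (50 to 73.2), and 108 UMIs, or 41.8 CPM (34.3 to 50.5), a log2 ratio of -0.54 (-0.93 to -0.14). Lin28a had 26 and 20 UMIs, or 14.2 CPM (9.30 to 20.9) and 7.75 CPM (4.73 to 11.97), and its log2 ratio of -0.88 (-1.80 to 0.02) did not exclude equal levels. In order, Fgf4 and Sox2 had ratios above 0, whereas Utf1, Pou5f1, Sall4 and Lin28a had ratios below 0.

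The sign of small ratios depended on scaling. Scaling by the median of gene ratios added 0.47 to every log2 ratio, which gave Pou5f1 0.12, Utf1 0.31 and Sox2 0.53, left Sall4 at -0.07 and took Fgf4 past 2-fold at 1.08. Under that scaling the median of all tested genes was 0.13 and the split of calls turned from 1178 lower and 644 higher to 404 lower and 1149 higher. Relative to the median of all tested genes, Pou5f1 was at -0.01, Sall4 at -0.20, Utf1 at 0.18, Sox2 at 0.40 and Fgf4 at 0.95. Fgf4 was above and Sall4 below the other 3 well-counted genes on each scale, since a scale factor moves all ratios alike.

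Mitochondrial share and depth moved with the time point, and ratios were therefore recomputed. In cells with at most 5% mitochondrial UMIs the log2 ratio was 0.51 for Fgf4, -0.35 for Pou5f1 and -0.54 for Sall4. In cells with at least 2000 UMIs they were 0.69, -0.33 and -0.80. Giving each cell equal weight moved Sall4 to -0.25 and Lin28a to -1.03, and left Pou5f1, at -0.39, below Sall4. Leaving out the 37 endoderm-marked cells gave -0.41 (-0.53 to -0.28) for Pou5f1 and 0.54 (0.12 to 0.97) for Fgf4.

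**Figure D1:**
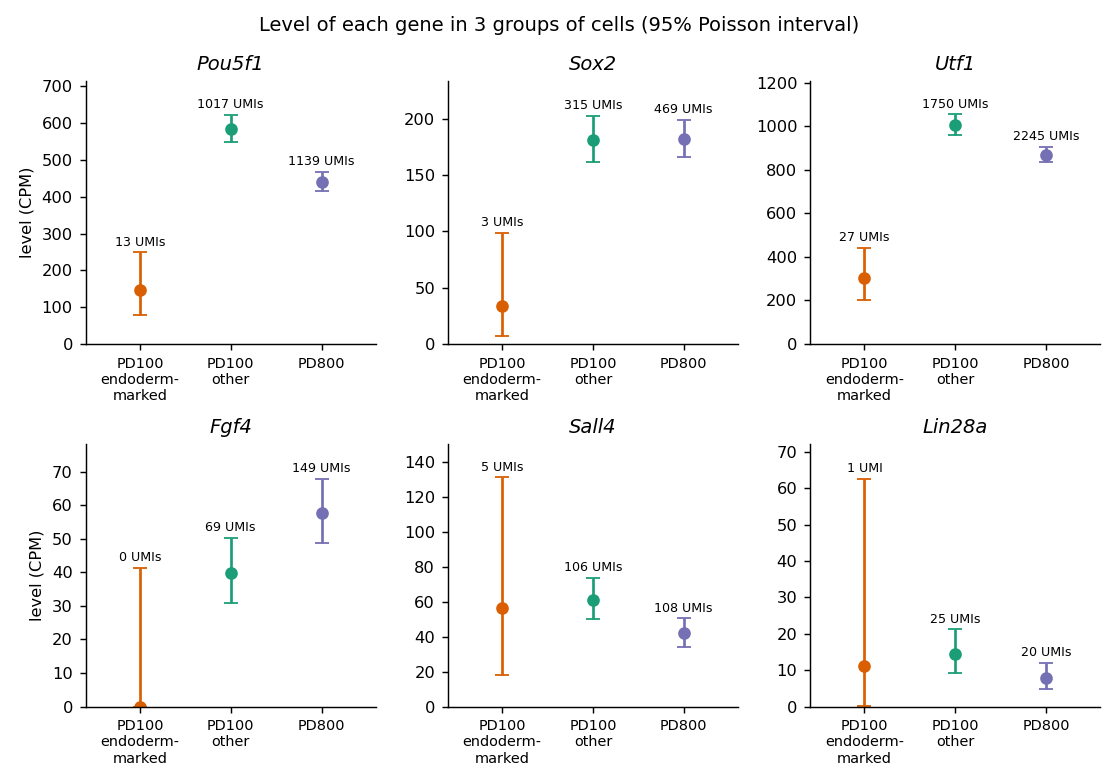
Level of each of the 6 genes in CPM (linear axes from 0, a separate scale for each gene) in endoderm-marked PD100 cells, other PD100 cells and PD800 cells; points are levels, bars are 95% Poisson intervals and the numbers are UMIs. Pou5f1 and Utf1 were highest in other PD100 cells, Fgf4 was highest in PD800 at 57.7 CPM, and Pou5f1, Sox2 and Utf1 were lowest in the endoderm-marked cells.

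The levels in the 3 cell groups gave a different order for different genes. For Pou5f1 the order was other PD100 cells at 585 CPM (550 to 623), PD800 cells and endoderm-marked cells, and no intervals overlapped. Utf1 had the same order, with 1007 CPM (961 to 1056) in other PD100 cells. Sox2 stood at 181 CPM (162 to 202) in other PD100 cells, its log2 ratio of PD800 over these cells was 0.0031 (-0.21 to 0.21), and its interval in endoderm-marked cells lay below both. The intervals of neighbouring groups overlapped for Fgf4, Sall4 and Lin28a, although the ratio intervals of Fgf4 and Sall4 between PD800 and other PD100 cells did not include equal levels.

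The next comparison was between the endoderm-marked and the other cells of PD100, which share a culture and a library, with medians of 2418 and 2143 UMIs per cell. Because both groups are cells of 1 library, no test was made. Of the 6 genes, 3 were at least 2-fold lower in the endoderm-marked cells and 0 at least 2-fold higher, where 20% and 11.4% of 4774 tested genes passed these rules. The median log2 ratio was -1.05 over the 6 genes (Fgf4 taken at 3 counts in place of 0) and -0.15 over all tested genes. The 283 tested genes with 0 UMIs in the endoderm-marked cells were taken at 3 counts too. This raises their ratios, so 20% is a lower limit and -0.15 an upper limit.

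Pou5f1 had 13 UMIs in the endoderm-marked cells, or 146 CPM (77.7 to 250), which was 4.01-fold lower than in the other cells, a log2 ratio of -2.00 (-2.92 to -1.22). Sox2 had 3 UMIs, or 33.7 CPM (6.95 to 98.5), and was 5.38-fold lower, a log2 ratio of -2.43 (-4.71 to -0.87). Utf1 had 27 UMIs, or 303 CPM (200 to 441), and was 3.32-fold lower, a log2 ratio of -1.73 (-2.34 to -1.19). Of all tested genes, 4.42% had a lower ratio than Pou5f1, 2.12% a lower one than Sox2 and 7.25% a lower one than Utf1. These shares are lower limits, since tested genes with 0 UMIs in the endoderm-marked cells were taken at 3 counts.

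The other 3 genes were too sparse for a statement. Fgf4 had 0 UMIs in the endoderm-marked cells, which allows up to 41.4 CPM by the exact interval, against 39.7 CPM in the other cells, where 3.54 UMIs would give the same level. A difference in Fgf4 was therefore not detectable at this depth. Sall4 had 5 UMIs, or 56.2 CPM (18.2 to 131), against 61.0 CPM, a log2 ratio of -0.12 (-1.77 to 1.15), so that its interval includes both the size seen for Utf1 and equal levels. Lin28a had 1 UMI, where 1.28 would give an equal level.

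**Figure D2:**
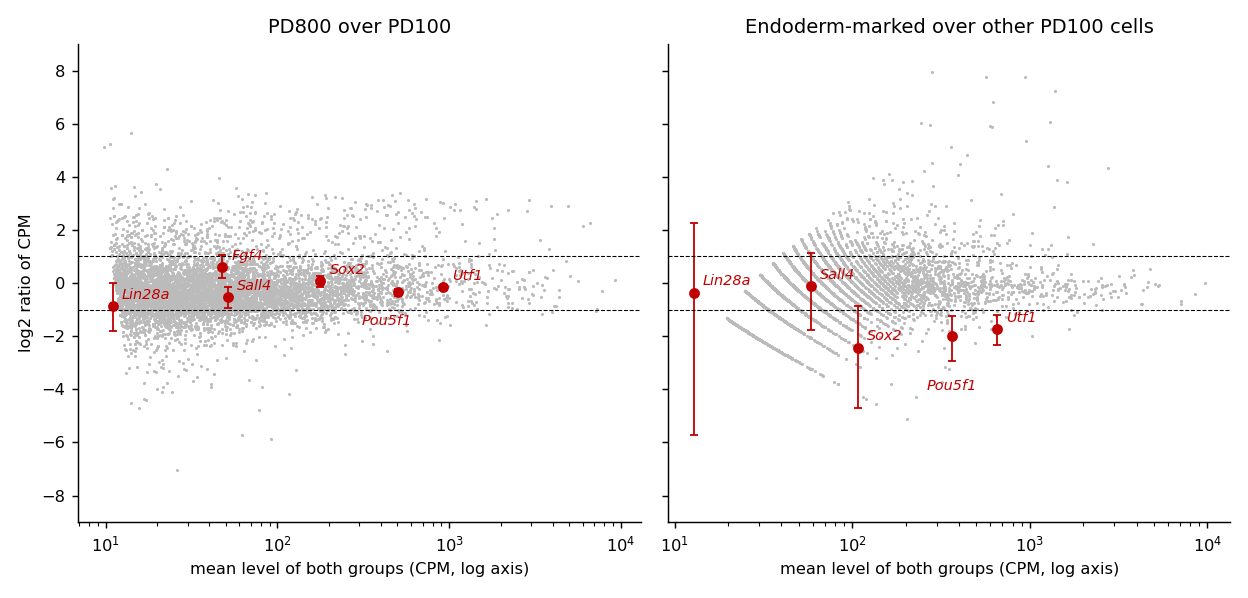
Log2 ratio of CPM against the mean CPM of both groups (log axis) for all tested genes with UMIs in both groups (grey) and the members (red, 95% intervals); left, PD800 over PD100, right, endoderm-marked over other PD100 cells, dashed lines at 2-fold. On the left the 6 genes lie between -0.88 and 0.61 within the grey cloud, and on the right Pou5f1, Sox2 and Utf1 lie below the lower line (Fgf4, at 0 UMIs, is not drawn).

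The level of Utf1 was also read by distance from the threshold. Endoderm-marked cells with 5 to 9 UMIs of the choosing genes (14 cells) had 516 CPM of Utf1 (301 to 827), those with 10 to 19 (11 cells) had 224 CPM (72.9 to 524) and those with 20 or more (12 cells) had 148 CPM (48.0 to 345). These intervals overlapped, those of the first and last group included. Pou5f1 had 152, 224 and 88.6 CPM in the same cells. The 11 cells just under the threshold, with 2 to 4 UMIs of the choosing genes, had 497 CPM of Pou5f1 (271 to 833) and 958 CPM of Utf1 (631 to 1393), close to the 584 and 999 CPM of the 728 PD100 cells without any. In these 11 cells the other endoderm markers stood at 1773 CPM, against 326 CPM in cells without any. With the threshold at 10, which left 23 endoderm-marked cells, the log2 ratio was -2.49 for Utf1 and -2.02 for Pou5f1.

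Doublets, droplets that hold a pair of cells, would mix the groups. Scrublet called 14 PD100 cells (1.72%), 3 of them endoderm-marked, and 8 PD800 cells (0.889%). Without the called cells the log2 ratio in the endoderm-marked cells was -2.07 for Pou5f1, -2.22 for Sox2 and -1.99 for Utf1. Whether the 13 UMIs of Pou5f1 left in these cells came from the cells themselves or from free RNA of other cells was not tested.

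Shares of cells with a UMI were compared after each cell had been thinned to 1000 UMIs. Pou5f1 was detected in 326 of 777 other PD100 cells (42.0%, 38.5 to 45.5), in 321 of 900 PD800 cells (35.7%, 32.5 to 38.9) and in 8 of 37 endoderm-marked cells (21.6%, 9.83 to 38.2). The intervals of other PD100 cells and PD800 cells overlapped slightly, and before thinning their shares were 65.0% and 64.3%. The share in endoderm-marked cells depended on the draw of UMIs, at 16.2% in another draw and 14.3% as the mean over all draws. Utf1 was detected in 55.7% (52.2 to 59.3) of other PD100 cells, 52.9% (49.6 to 56.2) of PD800 cells and 24.3% (11.8 to 41.2) of endoderm-marked cells. The Utf1 shares of the first pair of groups overlapped.

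For Sox2 the share was 13.9% (11.5 to 16.5) in other PD100 cells and 15.1% (12.8 to 17.6) in PD800 cells, whose intervals overlapped. In this draw Sox2 was detected in 0 of 37 endoderm-marked cells, for which the exact interval reaches 9.49% (3 cells would be 8.11%), and the mean over all draws was 2.05%. The unthinned shares of Sox2 were 24.6%, 34.3% and 5.41%. Fgf4 was detected in 19 other PD100 cells (2.45%, 1.48 to 3.79) and in 49 PD800 cells (5.44%, 4.05 to 7.13), and the intervals of this draw did not overlap. Another draw gave 2.83% and 5.33%, and the means over all draws were 3.11% and 5.23%. No intervals were computed for these. The unthinned shares of Fgf4 were 6.05% and 12.9%. Sall4 was detected in 5.02% (3.59 to 6.80) and 4.22% (3.00 to 5.75), and Lin28a in 1.54% (0.800 to 2.68) and 0.667% (0.245 to 1.45), with overlapping intervals for each gene. In endoderm-marked cells Sall4 was detected in 2 of 37 cells (5.41%, 0.661 to 18.2), an interval that holds both of its other shares. Whether these UMIs came from the cells themselves or from free RNA was not tested.

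**Figure D3:**
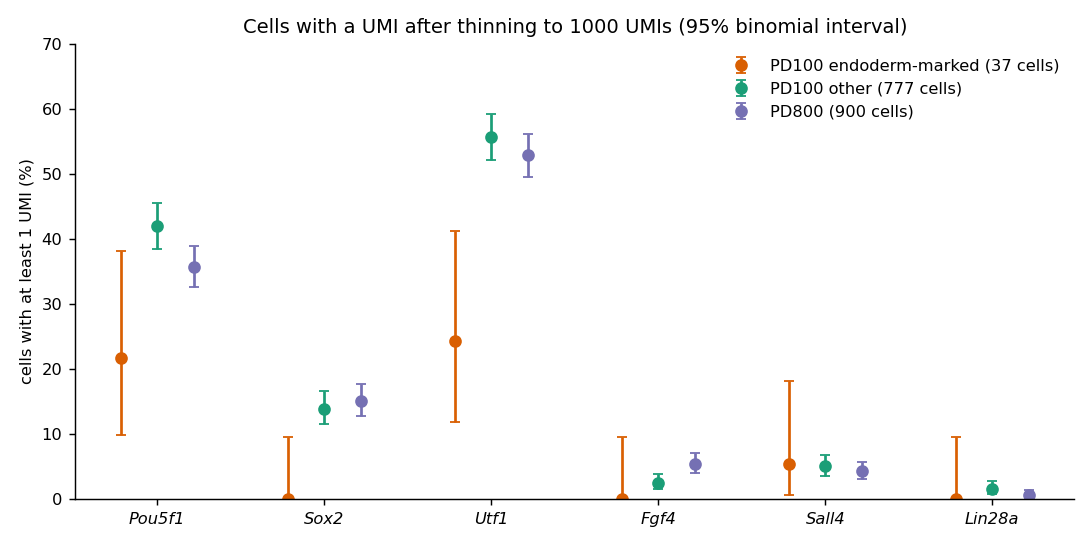
Percent of cells with at least 1 UMI of each gene after thinning each cell to 1000 UMIs, by cell group, with exact 95% binomial intervals. Pou5f1 is at 42.0% in other PD100 cells, 35.7% in PD800 cells and 21.6% in endoderm-marked cells, whereas Fgf4 is at 2.45%, 5.44% and 0%.

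The 6 genes were then summed in each thinned cell. Other PD100 cells held 0 to 9 UMIs of the 6 genes with a median of 2, PD800 cells 0 to 8 with a median of 1, and endoderm-marked cells 0 to 2 with a median of 0. None of the 6 was detected in 161 other PD100 cells (20.7%), 219 PD800 cells (24.3%) and 19 endoderm-marked cells (51.4%, 34.4 to 68.1). A Poisson spread around the mean of each group would leave 15.6% of other PD100 cells and 20.4% of PD800 cells without a UMI. The observed shares were thus a little above those that counting alone would leave, and a cell without a UMI at this depth cannot be read as a cell without expression. At least 3 of the 6 were detected in 46 other PD100 cells (5.92%) and 54 PD800 cells (6%).

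**Figure D4:**
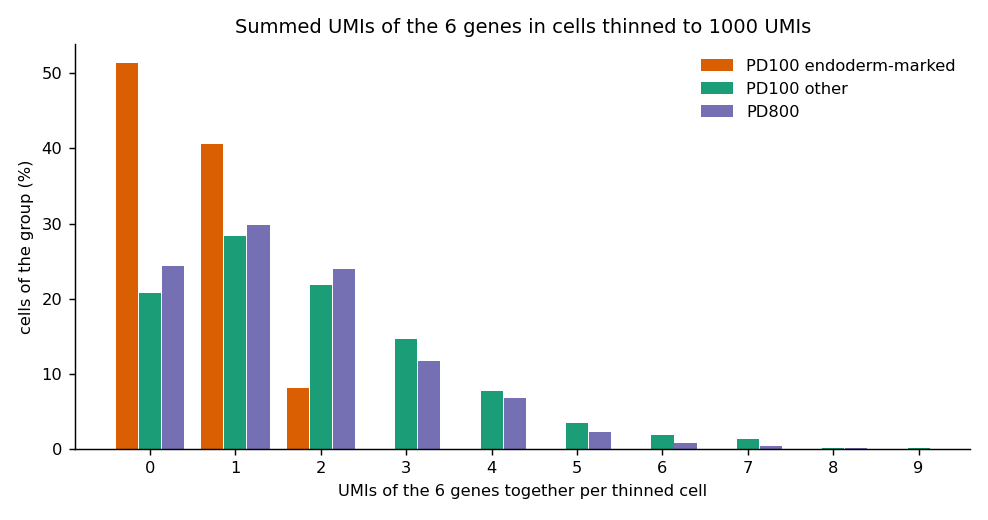
Percent of cells of each group (bars) by the summed UMIs of the 6 genes per cell thinned to 1000 UMIs. Endoderm-marked cells end at 2 UMIs with 51.4% at 0, while other PD100 cells reach 9 and PD800 cells 8.

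Evenness between cells was measured by the Fano factor, the variance over the mean of thinned counts, which is 1 for pure counting noise. Pou5f1 was at 1.13 (1.03 to 1.22) in PD100 and 1.05 (0.96 to 1.15) in PD800, with intervals of the width that counting noise gives. In PD100 it was thus a little above 1. The 100 genes of the most similar mean had medians of 1.31 and 1.19, and 94 of the 100 were above Pou5f1 in each library. Another draw gave Pou5f1 1.19 in PD100 and 1.01 in PD800. Utf1 was at 1.42 and 1.29, with 26 and 28 of its 100 like genes above it. In PD800 this rank of Utf1 depended on draw and depth, with 60 above it in another draw, 51 at 2000 UMIs and 58 without thinning. In PD100 the same settings left 26, 34 and 38 above it. Sox2 was at 1.39 and 1.15 and Fgf4 at 1.56 and 1.25, but both depended on the draw of UMIs, with 1.27 for Sox2 and 1.21 for Fgf4 in PD100 in another draw. Sall4 was at 1.12 and 1.23, and Lin28a at 0.986 and 0.994. Without thinning single cells held up to 8 and 7 UMIs of Pou5f1, 11 and 15 of Utf1, 6 and 5 of Sox2 and 5 and 4 of Fgf4 in PD100 and PD800.

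Detection of the 6 genes in the same cell was close to what their separate shares give. Pou5f1 and Sox2 were detected together in 42 other PD100 cells, against 45.3 expected from their shares, and in 56 PD800 cells, against 48.5. Over the 10 pairs with at least 5 cells expected in other PD100 cells the ratio of observed to expected lay between 0.733 (Pou5f1 with Sall4) and 1.32 (Utf1 with Fgf4), with a median of 1.03. In PD800 the 9 such pairs lay between 0.738 (Pou5f1 with Sall4) and 1.62 (Sox2 with Fgf4, 12 cells against 7.40), with a median of 1.14. Sox2 with Fgf4 depended on the draw, with a ratio of 0.521 in another draw and 0.962 at 2000 UMIs. The intervals of 0 of 15 pairs excluded 1 in either group. These are Poisson intervals of the observed number and do not hold the shares of both genes fixed. This makes them wide for genes detected in many cells. At a mean of 1.86 summed UMIs per cell, weak links between the genes could not be seen.

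Cells were also split by other stem cell genes, a choice made after values had been seen. Thinned cells with a UMI of Nanog, Klf4, Esrrb or Tfcp2l1, factors of naive pluripotency, were 111 of 777 other PD100 cells and 302 of 900 PD800 cells. In PD100, Utf1 stood at 712 CPM in these cells and 1015 CPM in the rest, a log2 ratio of -0.51 (-0.87 to -0.17). In PD800 the levels were 874 and 846 CPM, a log2 ratio of 0.05 (-0.17 to 0.26). The difference between the libraries was not tested. The intervals of Pou5f1, Sox2, Fgf4 and Sall4 included equal levels in both libraries, with Pou5f1 at -0.18 (-0.60 to 0.21) and 0.06 (-0.25 to 0.36). In the 120 other PD100 cells with a UMI of Lefty1 or Lefty2, the Nodal inhibitors, the intervals of all 6 genes included equal levels, with Pou5f1 at -0.29 (-0.70 to 0.11). In PD800 only 7 cells had such a UMI. Fgf4 stood there at 571 CPM, from 4 UMIs, against 59.4 CPM in the rest, a log2 ratio of 3.27 (1.34 to 4.71). The median log2 ratio over all 2627 tested genes in this comparison was 1.03, with 3 counts in place of 0. With 7 cells and 4 UMIs no link between Fgf4 and the Lefty genes can be read from it. The intervals of Pou5f1, Sox2 and Utf1 included equal levels.

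Known partners and targets gave the setting of the 6 genes. Of 11 genes listed as targets of Pou5f1 or Sox2, 1 was at least 2-fold lower in PD800 and 3 were at least 2-fold higher. Over all tested genes 16.9% were lower and 9.22% higher by these rules. The median log2 ratio of the targets was -0.19, against -0.34 over all tested genes. Whether each is activated by the pair together was not tested. Lefty1 had 328 and 8 UMIs (-5.86, -7.08 to -4.86) and Dppa4, a chromatin protein, 476 and 342 (-0.98). Spp1, which encodes osteopontin, had 511 and 2291 UMIs (1.67, 1.53 to 1.81) and Fbxo15, an F-box protein, 50 and 155 (1.13, 0.66 to 1.62). The targets thus spread in either direction around the small ratios of Pou5f1 and Sox2. Of 12 other stem cell markers, 6 of which are also in the target list, 0 were at least 2-fold lower and 4 at least 2-fold higher, with a median of 0.35. The naive factors Esrrb (57 and 230 UMIs, 1.51) and Klf4 (124 and 566, 1.69) were at the upper end, and Dppa4 and Tdh, threonine dehydrogenase (1146 and 837, -0.95), at the lower.

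In the endoderm-marked cells, 8 of 11 tested stem cell markers were at least 2-fold lower and 0 higher, with a median log2 ratio of -1.78. Over all tested genes the shares were 20% (a lower limit) and 11.4%, with a median of -0.15 (an upper limit). Zfp42 (Rex1) was at -3.73 (4 UMIs against 1034) and Tdgf1, a Nodal co-receptor, at -3.16 (6 against 1043). Klf4 was at 0.61 (-0.55 to 1.59) and Dppa5a at -0.79 (-0.93 to -0.66). Of the 11 targets 8 were at least 2-fold lower, whereas Upp1, uridine phosphorylase, was at 0.88 (0.50 to 1.24). Pou5f1, Sox2 and Utf1 were therefore lower in these cells alongside most of the other stem cell genes, and less far than Zfp42 or Tdgf1 by their point values.

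Relatives of the single members were sparse. Of 14 other Sox and POU genes 3 reached 50 UMIs, with Sox15 at 94 and 40 UMIs (-1.73, -2.30 to -1.18), Sox4 at 75 and 90 (-0.24, -0.69 to 0.23) and Pou2f1 at 34 and 67 (0.48, -0.14 to 1.12). For Sall4, 12 of 16 Sall and NuRD genes could be compared, with 1 at least 2-fold lower and 1 higher and a median of -0.43. Over all tested genes 16.9% were lower and 9.22% higher by these rules, with a median of -0.34. Mta3, a NuRD subunit, had 287 and 147 UMIs (-1.46), and Gatad2a 114 and 84 (-0.94). At the other end stood Gatad2b, the paralogue of Gatad2a, with 86 and 411 (1.76), and Sall1 with 19 and 53 (0.98).

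Around Lin28a, 14 of 21 genes of the let-7 axis could be compared, with 4 at least 2-fold lower, 0 higher and a median of -0.64. For this list and the next, the shares over all tested genes were 16.9% lower and 9.22% higher, with a median of -0.34. Myc, a let-7 target, had 122 and 41 UMIs (-2.07, -2.62 to -1.55) and Tut1, a terminal uridylyltransferase, 114 and 61 (-1.40). Dicer1, which cuts microRNA precursors, was at 0.39 (-0.11 to 0.90), and Zcchc11 (Tut4), which adds uridines to pre-let-7, at 0.57 (-0.20 to 1.37). Around Fgf4, 16 of 30 genes of FGF signalling could be compared, with 2 at least 2-fold lower, 2 higher and a median of -0.18. The ligand Fgf17 had 43 and 15 UMIs (-2.02), Mapk3 (ERK1) 149 and 80 (-1.40) and Hs2st1, a heparan sulphate sulphotransferase, 17 and 95 (1.98). The higher Fgf4 level in PD800 thus stood beside pathway genes that went either way. Of 13 genes of the primed epiblast and early lineages 2 could be compared, the DNA methyltransferase Dnmt3b (167 and 50 UMIs, -2.24) and Otx2 (149 and 63, -1.74). The 14 endoderm markers together stood at 812 CPM in PD100 and 145 CPM in PD800, of which Sparc alone made up 507 and 111 CPM.

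**Figure D5:**
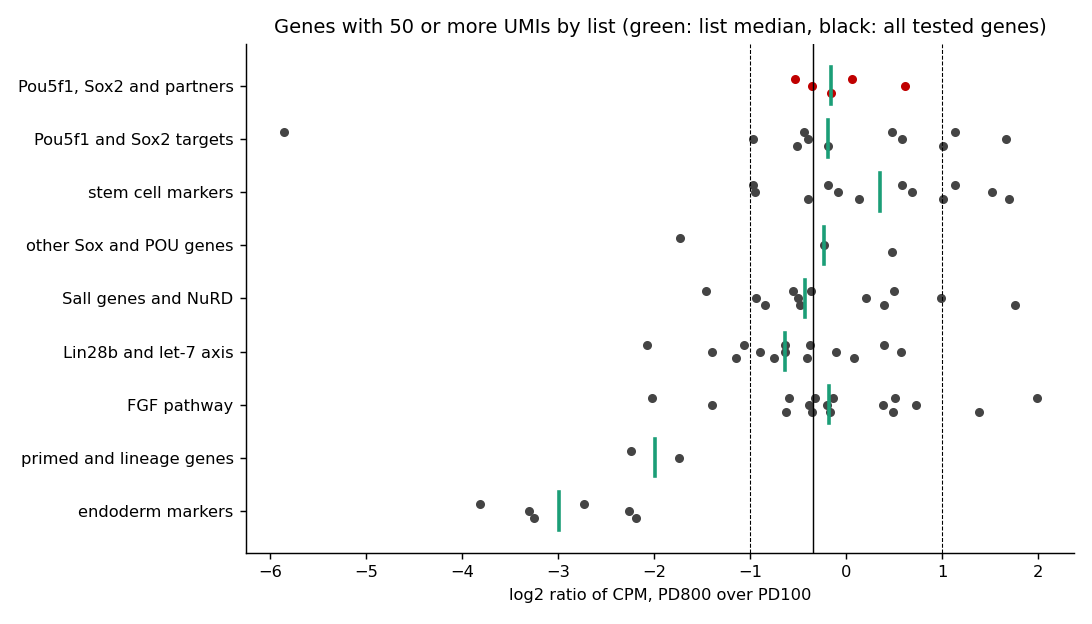
Log2 ratio of CPM, PD800 over PD100, of each gene with 50 or more UMIs, by list (dots, offset vertically for visibility); green bars are list medians, the black line is the median of all tested genes and dashed lines mark 2-fold. The 5 members shown lie between -0.54 and 0.61 around a median of -0.16. The 11 targets lie between -5.86 and 1.67, where the low end is Lefty1 alone and the next lowest is Dppa4 at -0.98.

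Finally, the genes with the pattern most like each member over the 3 cell groups were sought by the distance between centred log2(CPM + 10) values, among 3214 genes with 200 or more UMIs. They were Polr2b and Wdr36 for Pou5f1 (distances 0.058 and 0.059), Rabggta and Prim1 for Sox2 (0.049 and 0.062), Pkig and Dppa2 for Utf1 (0.036 and 0.068), Msantd3 and Socs2 for Fgf4 (0.024 and 0.085), Bzw1 and Gpn3 for Sall4 (0.0078 and 0.013) and Cep57 and Banf1 for Lin28a (0.016 and 0.022). A pattern over 3 groups is easily matched. Polr2b, Wdr36, Rabggta, Prim1 and Pkig each stood at 11.2 CPM, or 1 UMI, in the endoderm-marked cells.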

How the data were processed

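The deposited values are raw UMI counts for each barcode and gene. The authors obtained them with the inDrops pipeline, for which reads were mapped to transcripts of GRCm38/mm10. The annotation release and any removal of doublets are not given in the sources used here. Groups came from the time points in the labels, and 0 other columns of per-sample values were present. The members, gene lists and rules were chosen with earlier results of these data known.

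Cells with at least 1000 UMIs and at most 20% mitochondrial UMIs (of 37 mitochondrial genes) were kept, 814 of 1291 and 900 of 1666 barcodes. The study states slightly lower cell numbers for the same filter. Counts were summed over cells and divided by the total (CPM). Sums had exact Poisson, ratios of levels exact conditional (Clopper-Pearson) and shares exact binomial 95% intervals. Pairs had the exact Poisson interval of the observed number, divided by the expected number. These cover counting error only. A 0 was replaced by 3 counts over the group for a bound. Genes needed 50 UMIs over both groups. A rule of 2-fold took the place of a test. Cells were thinned without replacement to 1000 UMIs (seed 1). Doublets called with Scrublet (Scanpy 1.11.5, expected rate 5%) were kept in the values given and left out in an alternative.

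Named genes were the 6 members, the 2 highest and 2 lowest ratios of each list, and the 2 genes most like each member (200 or more UMIs, pseudocount 10 CPM, 3 cell groups). A gene that this rule names is not reported here. Genes named from lists in endoderm-marked cells were chosen after their values were seen, as were the splits by naive factors and Lefty genes. Positions came from GENCODE M21 and promoters from RefSeq, with an entry for 5 of the 6 members. The alternatives changed the filter on cells, doublets, scaling, the endoderm threshold, thinning and the minimum of UMIs. Scripts ran in Python 3.11.15, NumPy 2.4.6, SciPy 1.17.1 and pandas 2.3.3 and were tested on simulated data.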

Additional observations from a re-analysis of the deposited data

Results flagged for a closer look

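Barcodes left out by the cell filter, 477 in PD100 and 766 in PD800, were in no main comparison. They entered only the alternative without a cell filter. In these barcodes 5 of the 6 genes had more than 3 UMIs in each library, the limit that a count of 0 allows. Their log2 ratios of PD800 over PD100 were -0.49 (-0.80 to -0.17) for Pou5f1 with 151 and 200 UMIs, and -0.37 (-1.03 to 0.31) for Sox2 with 34 and 49 UMIs. Utf1 was at 0.017 (-0.22 to 0.25) with 233 and 438 UMIs. Fgf4 was at 1.43 (0.24 to 2.84) with 7 and 35 UMIs, and Sall4 at -0.16 (-1.44 to 1.22) with 9 and 15 UMIs. Lin28a had 3 UMIs in each library. Whether these barcodes hold small cells or free RNA was not tested.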

How the results depend on the processing

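With 1 library per time point no replicate could be left out, and no library effect can be separated from the time point. No paired analysis was possible because each group has 1 sample. Depth limits Fgf4, Sall4 and Lin28a in endoderm-marked cells and all pairs with few expected cells. The median ratio of the 6 genes (-0.26) became 0.21 under median-of-ratios scaling, with 1 gene (Fgf4) at least 2-fold higher, and 0.084 relative to the median of all tested genes. Under the former Pou5f1 turned from -0.35 to 0.12 and Utf1 from -0.16 to 0.31. With each cell weighted equally 1 gene (Lin28a) was at least 2-fold lower. Genes at least 2-fold lower and higher numbered 544 and 973 relative to the median, 1916 and 995 of 9818 with a minimum of 20 UMIs, and 401 and 334 of 3214 with 200. Of the alternatives, 69 planned values moved and 244 did not, and the 21 added after seeing the data (without endoderm-marked cells) did not.

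Shares rose with depth. Thinned to 2000 UMIs, they were in other PD100 cells 64.8% for Pou5f1, 24.4% for Sox2, 78.3% for Utf1, 11.4% for Sall4 and 3.42% for Lin28a, and in PD800 55.8%, 29.0%, 78.3%, 7.53% and 1.84%, with Fgf4 at 10.4%. Without thinning they were 65.0%, 24.6%, 76.8%, 9.78% and 3.09%, with Fgf4 at 6.05%, and in PD800 64.3%, 34.3%, 81.2%, 10% and 2.0%, with Fgf4 at 12.9%. Fano factors without thinning were 1.43 for Pou5f1, 1.84 for Sox2, 2.07 for Utf1, 1.85 for Fgf4 and 1.496 for Sall4 in PD100, and 1.44, 1.44, 2.01 and 1.37 for the first 4 and 1.18 for Lin28a in PD800. At 2000 UMIs they were 1.65 for Sox2, 1.62 for Utf1 and 1.24 for Sall4 in PD100, and 1.14 for Fgf4 and 1.14 for Sall4 in PD800. With seed 2, Sox2 was at 1.27 and Fgf4 at 1.21 in PD100. Observed over expected pairs with seed 2 were 0.902 for Sox2 with Utf1, 0.521 for Sox2 with Fgf4, 0 for Sox2 with Lin28a and 0 for Fgf4 with Lin28a in PD800, and 0 for the last pair in PD100. At 2000 UMIs Sox2 with Fgf4 was at 0.538 in PD100.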
